A study of Homo sapiens with 3 samples.

Results

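The transcripts of 10 genes that build the mTOR complexes, hold them in check or control binding of the mRNA cap were examined in SupB15-MR and SupB15 cells: MTOR, RPTOR, RICTOR, DEPTOR, TSC1, TSC2, RHEB, EIF4EBP1, EIF4E and RPS6KB1. They were measured by every probe set that the annotation of the array assigns to one of these genes alone, 30 of 54675 probe sets in all, and no probe set was shared between one of them and another gene. SupB15 is a B-cell precursor acute lymphoblastic leukemia (ALL) line that carries BCR-ABL. SupB15-MR are its multiple drug resistant subpopulations, which the study raised by exposing SupB15 to mitoxantrone in medium conditioned by HS-5 bone marrow stromal cells and then growing the survivors without drug. Total RNA of SupB15-MR cells (2 arrays, biological replicates 1 and 2, the second described as SupB15-MR5) and of the drug sensitive SupB15 cells (1 array) was compared. All cells were in normal medium with serum and without drug. Since the study describes these arrays as 2 SupB15-MR clones, clone and replicate cannot be told apart, the p-values measure only the spread between these clones, and SupB15 has no second culture.

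mTOR is a serine/threonine kinase that couples growth to nutrients, energy and growth factors. In complex 1 it works with RPTOR, in complex 2 with RICTOR, and DEPTOR binds both complexes and restrains them. The TSC1-TSC2 complex switches off the small GTPase RHEB, which otherwise activates complex 1. Active complex 1 phosphorylates the S6 kinase encoded by RPS6KB1 and the translational repressor encoded by EIF4EBP1, which then lets go of the cap-binding protein EIF4E so that translation can start. In B-precursor ALL with BCR-ABL the pathway lies downstream of the fusion kinase. Transcript levels do not report the phosphorylation by which most of this control is exerted.

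The largest differences among the 30 probe sets were at RHEB, which activates complex 1, and at EIF4EBP1, while MTOR, RPTOR, RICTOR and TSC1 stayed below 1.5-fold on each of their 8 probe sets in both SupB15-MR arrays. EIF4EBP1 fell, on its only probe set, by 3.0 on the log2 scale (8.02-fold lower in SupB15-MR). RHEB went both ways: 2 of its 9 probe sets rose, by 4.35 and 3.85, and 1 fell by 2.52. EIF4E also split, with 1 of 5 probe sets higher and 1 lower. In total 9 of the 29 probe sets that passed a filter on low values were called, 4 up and 5 down in SupB15-MR, against a background of 22.8% of all 46034 probe sets kept (13.1% higher and 9.71% lower). Called were probe sets 2-fold apart or more whose p from limma, adjusted by Benjamini-Hochberg over all probe sets kept, did not exceed 0.05. The study's methods name an ANOVA, and its comparison also included SupB15 cells in conditioned medium, on arrays not used here. A 1-way ANOVA on these 3 arrays alone has 1 residual degree of freedom. It gave no call after adjustment, 0 of the 27745 probe sets it could test and 0 of the 19 among them of the 10 genes. Of these 19, 7 reached an unadjusted p of 0.05 and 2-fold. With the arrays centred on their medians the calls over all probe sets numbered 6552 higher and 7762 lower, against 6021 and 4470, and those among the 29 numbered 5 and 7, against a background of 31.1%. A limma fit on the same 27745, those whose SupB15-MR values differ, called 49.2% of them, and 9 of the 19 of the 10 genes. Without a test, 11 of the 29 differed 2-fold or more the same way in each SupB15-MR array, 5 higher and 6 lower, where the background was 33.2% (18.3% higher and 15.0% lower). The median log2 difference was 0.02 over the 29 probe sets and 0 over all probe sets kept. These shares lie near the background and are no result about the 10 genes as a set, and the results below concern single genes.

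Values are RMA values, which are background-corrected, normalised log2 probe set summaries, and a log2 difference is SupB15-MR minus SupB15. The array medians were 5.27 and 5.28 in SupB15-MR and 5.08 in SupB15, so that centring on the median lowers each log2 difference by 0.19. Over all probe sets the SupB15-MR arrays correlated with each other at r = 0.995 and with SupB15 at 0.841 each. They held identical values for 39.7% of the probe sets kept, and for 10 of the 29 examined here. For identical values the error from limma is not a measured spread, and none is given. The other standard errors given are from the fit over all probe sets kept. In the limma fit on probe sets whose SupB15-MR values differ, those of the 10 genes were 0.201 to 0.209. Among the 19 probe sets whose SupB15-MR values differ, the gap between the SupB15-MR arrays was at most 0.28, and it was smaller than the difference of either array from SupB15 in 15. The share of all probe sets for which this held was not taken, so that the count is no result about these genes. The spread behind each p-value comes from the SupB15-MR arrays alone, and an exact permutation test of 2 arrays against 1 has 3 splits and cannot give a p under 0.333. In the control probe sets, the 3' one of ACTB exceeded the 5' one by 2.59 and 2.43 in SupB15-MR and by 0.80 in SupB15, while for GAPDH the difference was -0.09 and -0.11 in SupB15-MR and 0.10 in SupB15. The part of this in the results was not tested. B-lineage identity was checked on 7 markers, of which MME rose, and the lower values of EBF1 and BLNK were not called. With median centring BLNK was (-2.27, adjusted p = 0.0348 from limma). The limma fit on probe sets whose SupB15-MR values differ called both lower. The 4 probe sets of EBF1 went both ways, 1 higher and 2 lower by 2-fold or more in each SupB15-MR array. Summed on the linear scale the 7 B-lineage markers gave 8001 and 7412 in SupB15-MR and 12395 in SupB15, and 5 T-cell markers gave 90.7 and 90.6 in SupB15-MR and 119 in SupB15. The sums of 4 stromal markers were 143 and 136 in SupB15-MR and 166 in SupB15, and those of 4 myeloid markers were 360 and 220 in SupB15-MR and 113 in SupB15. Among the myeloid markers, LYZ rose by 1.21 and MPO had values of 8.20 and 7.30 in SupB15-MR and 6.18 in SupB15. Their part in the results was not tested.

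**Figure D1:**
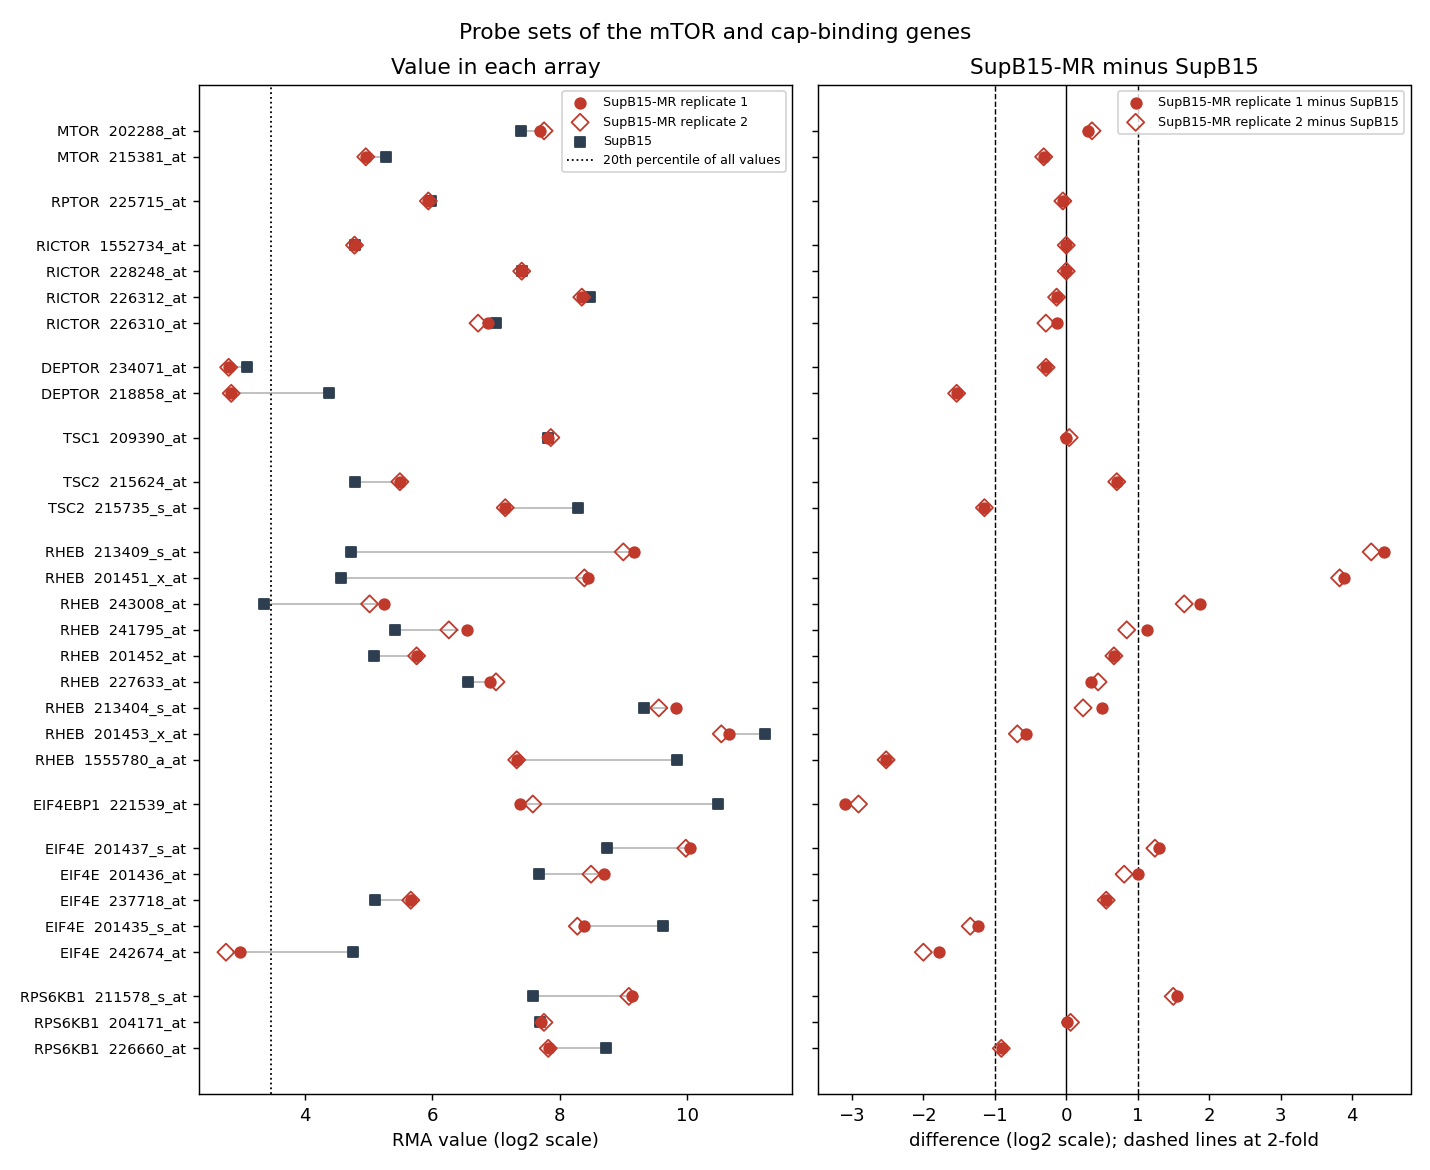
RMA values of the 30 probe sets in each array (left, log2 scale, with the low-value limit of 3.47 as a dotted line) and the difference of each SupB15-MR array from SupB15 (right, log2 scale, dashed lines at 2-fold), by gene. The probe sets of MTOR, RPTOR, RICTOR and TSC1 lie close to 0, that of EIF4EBP1 lies at -3.10 and -2.91, and those of RHEB reach from -2.52 to 4.44.

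MTOR, RPTOR, RICTOR and TSC1 differed little. MTOR had values of 7.69 and 7.75 in SupB15-MR and 7.39 in SupB15 on probe set 202288_at, a log2 difference of 0.33 (standard error 0.0456) that was not called (adjusted p = 0.0843 from limma). Its other probe set, 215381_at, had 4.96 in both SupB15-MR arrays and 5.27 in SupB15. The probe sets of MTOR thus lay on opposite sides of SupB15, each by less than 1.26-fold. RPTOR, the scaffold that brings substrates to complex 1, had 5.94 in both SupB15-MR arrays and 5.99 in SupB15 on its only probe set. RICTOR, the scaffold of complex 2, had log2 differences of 0, 0, -0.13 and -0.21 on its 4 probe sets, and 2 of them (1552734_at and 228248_at) held 1 value, 4.78 and 7.40, in all 3 arrays. TSC1, which stabilizes the TSC complex, had 7.82 and 7.86 in SupB15-MR and 7.82 in SupB15, the value of replicate 1. Its log2 difference of 0.02 turns to -0.17 with median centring, without a call in either. None of the 8 probe sets of these 4 genes was called, and 44.0% of all probe sets kept were likewise under 1.5-fold in both SupB15-MR arrays.

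The inhibitor DEPTOR was low in all cells. Probe set 218858_at had 2.85 in both SupB15-MR arrays and 4.38 in SupB15. The SupB15-MR values lay under the low-value limit of 3.47, which 20% of all values on the arrays do not exceed. The log2 difference of -1.53 thus rests on values near the bottom of the scale, and its size is uncertain. This probe set was called lower, with identical SupB15-MR values. The second probe set, 234071_at, had 2.81 in both SupB15-MR arrays and 3.09 in SupB15, under that limit in all 3 arrays, and was the 1 of the 30 that did not pass the filter.

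TSC2, the GTPase-activating subunit that acts on RHEB, went opposite ways on its 2 probe sets. On 215735_s_at it had 7.14 and 7.15 in SupB15-MR and 8.29 in SupB15, and fell by 1.15 (standard error 0.00455, adjusted p = 0.00195 from limma). That error rests on SupB15-MR values only 0.00597 apart. It was 0.201 in the limma fit on probe sets whose SupB15-MR values differ (adjusted p = 4.85e-05 from limma). On 215624_at TSC2 had 5.49 in both SupB15-MR arrays and 4.79 in SupB15, 1.63-fold higher and below the fold needed for a call. The name ending _s_at marks probes that match several transcripts.

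RHEB, the direct activator of complex 1, had the widest spread of the 10 genes. On 213409_s_at it had 9.17 and 9.0 in SupB15-MR and 4.73 in SupB15 (log2 difference 4.35, standard error 0.131, adjusted p = 0.0182 from limma). On 201451_x_at it had 8.45 and 8.39 in SupB15-MR and 4.56 in SupB15 (log2 difference 3.85, standard error 0.046, adjusted p = 0.00662 from limma). Both SupB15-MR arrays lay far above SupB15 on these probe sets, by 20.4-fold and 14.5-fold. The opposite held for 1555780_a_at, with 7.32 in both SupB15-MR arrays and 9.85 in SupB15, 5.74-fold lower in SupB15-MR, on identical SupB15-MR values. The share of all probe sets kept with a rise as large was 0.878% for 213409_s_at and 1.44% for 201451_x_at, and the share with a fall as large was 2.90% for 1555780_a_at.

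The other 6 RHEB probe sets lay between these. Probe set 243008_at had 5.25 and 5.02 in SupB15-MR and 3.37 in SupB15, higher by 2-fold or more in each, and missed the call (adjusted p = 0.0596 from limma). Its SupB15 value lay under the low-value limit. Median centring brought it past the threshold (log2 difference 1.57, adjusted p = 0.0275 from limma). Probe set 241795_at had 6.54 and 6.26 in SupB15-MR and 5.42 in SupB15, so that only replicate 1 was over 2-fold. The log2 differences of 201452_at, 227633_at and 213404_s_at were 0.67, 0.40 and 0.37, and that of 201453_x_at was -0.63, with 10.65 and 10.53 in SupB15-MR and 11.22 in SupB15. Counted by sign, 7 of the 9 probe sets were higher in SupB15-MR, and their median log2 difference was 0.67. The ending _x_at of 201451_x_at and 201453_x_at marks probes that also match other sequences, and RefSeq annotates 3 RHEB pseudogenes, so that the signal on these probe sets cannot be assigned to RHEB with certainty. No single direction can be given for RHEB.

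Probe sets of one gene disagreed in a share of genes that differed with their number. Of 9016 genes with 2 or more probe sets kept, 9.46% went both ways, and of the 1043 with 5 or more, 31.2% did, with one probe set up and another down by 2-fold or more in each SupB15-MR array. The distance between the highest and the lowest log2 difference was 6.87 for RHEB, larger than in 97.1% of these genes, whose median was 2.97. For EIF4E it was 3.16, larger than in 53.9% of them. Genes with more probe sets have more room to spread, and among the 20 genes with 9 probe sets 7 went both ways and RHEB lay at percentile 85. These shares are descriptions without a test. By name ending, differences of 2-fold or more were upward in 21.2% and downward in 15.2% of the _s_at probe sets kept, the ending of RHEB 213409_s_at, EIF4E 201437_s_at and RPS6KB1 211578_s_at. They were upward in 18.5% and downward in 16.5% of the _x_at probe sets, and upward in 17.2% and downward in 14.8% of those ending in _at alone.

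**Figure D2:**
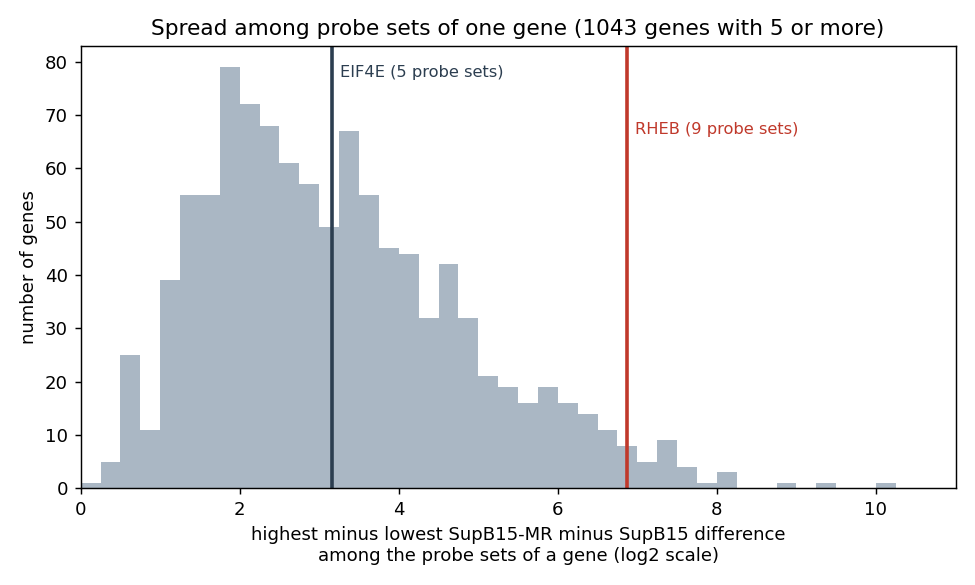
Number of genes (vertical axis) by the distance between the highest and the lowest SupB15-MR minus SupB15 difference among the probe sets of a gene (horizontal axis, log2 scale), for 1043 genes with 5 or more probe sets kept. RHEB lies at 6.87, in the upper tail, and EIF4E at 3.16, near the median of 2.97.

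EIF4EBP1, the repressor that keeps EIF4E from the rest of the cap-binding complex, had the largest fall of the 10 genes. It had 7.38 and 7.58 in SupB15-MR and 10.48 in SupB15. Both SupB15-MR arrays lay about 3 below SupB15 and 0.19 apart, and the log2 difference was -3.0 (standard error 0.147, adjusted p = 0.0301 from limma). All 3 values lay well above the low-value limit. Of all probe sets kept, 1.57% had a fall as large. EIF4EBP1 has no second probe set of its own in these data to set beside this fall, and RefSeq annotates 2 EIF4EBP1 pseudogenes.

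EIF4E, the protein that binds the cap itself, split over its 5 probe sets. On 201437_s_at it had 10.04 and 9.98 in SupB15-MR and 8.74 in SupB15, and rose by 1.27 (standard error 0.044, adjusted p = 0.0211 from limma). On 201435_s_at it had 8.39 and 8.28 in SupB15-MR and 9.62 in SupB15, and fell by 1.29 (standard error 0.0824, adjusted p = 0.0394 from limma). These were thus 2.41-fold higher and 2.44-fold lower in SupB15-MR. Probe set 242674_at had 2.99 and 2.76 in SupB15-MR, under the low-value limit, and 4.76 in SupB15, and was not called (adjusted p = 0.0549 from limma). Median centring brought it past the threshold as well (log2 difference -2.08, adjusted p = 0.019 from limma). The remaining 201436_at and 237718_at had log2 differences of 0.91 and 0.56 and were not called. RefSeq annotates 5 EIF4E pseudogenes. No single direction can be given for EIF4E.

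EIF4E is a textbook target of MYC, which binds the E-box CACGTG, and the bases before the start of EIF4E are shown for that reason beside those of TSC2, the other member with the motif. CACGTG reads the same on both strands. RefSeq promoters (GRCh38.p14) were matched for 8 of the 10 genes, and the 250 bases before each start were searched. The motif stood there in 6.34% of all 35116 promoters, and at 2 or more places in 0.535%. EIF4E holds it at 2 places, which begin 225 and 72 bases before the start (chr4:98929134-98929383, minus strand). TSC2 holds it at 1 place, 114 bases before the first of its 2 starts (chr16:2047735-2047984, plus strand). The windows of MTOR, RPTOR, RICTOR, TSC1, RHEB and RPS6KB1 do not contain these letters. Both are printed 5′ to 3′ with the motif in capitals, as a description of sequence and not of binding.
EIF4E: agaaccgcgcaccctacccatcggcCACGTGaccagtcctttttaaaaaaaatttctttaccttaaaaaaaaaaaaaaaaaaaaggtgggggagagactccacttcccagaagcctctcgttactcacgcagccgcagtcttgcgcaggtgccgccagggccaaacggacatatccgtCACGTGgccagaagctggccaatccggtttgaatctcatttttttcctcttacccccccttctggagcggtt
TSC2: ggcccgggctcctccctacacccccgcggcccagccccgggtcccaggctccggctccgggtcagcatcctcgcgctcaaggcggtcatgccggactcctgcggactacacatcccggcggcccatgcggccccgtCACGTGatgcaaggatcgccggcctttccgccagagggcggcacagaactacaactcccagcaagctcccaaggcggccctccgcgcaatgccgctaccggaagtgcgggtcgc

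RPS6KB1, the S6 kinase, differed by probe set as well. On 211578_s_at it had 9.13 and 9.08 in SupB15-MR and 7.59 in SupB15, and rose by 1.52 (standard error 0.0374, adjusted p = 0.0147 from limma). On 204171_at it had 7.70 and 7.75 in SupB15-MR and 7.69 in SupB15, a log2 difference of 0.04 that turns to -0.16 with median centring, without a call in either. On 226660_at it had 7.83 and 7.82 in SupB15-MR and 8.73 in SupB15, 1.87-fold lower and under the fold needed, although median centring (-1.09, adjusted p = 0.006 from limma) brought it past the threshold. Of the 7 genes with several probe sets, RHEB and EIF4E reached 2-fold both ways, TSC2, DEPTOR and RPS6KB1 only one way, and MTOR and RICTOR neither.

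The SupB15-MR arrays differed little from each other on these genes. Where their values were not identical, replicate 1 was the higher in 13 and replicate 2 in 6 of 19 probe sets, and the median gap was 0.11 on the log2 scale, against 0.15 over all probe sets kept that differ. The largest gap was on RHEB 241795_at, 0.28. The gap on EIF4EBP1 was 0.19, with replicate 2 the higher. For 4 of the 19, the gap was no smaller than the lesser of the 2 differences from SupB15, a count likewise given without its share over all probe sets.

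Beyond the 10 genes, 78 other genes of the pathway were listed by role, of which 69 had a probe set of their own that passed the filter. For each, the probe set brightest over both groups, weighted equally, stood for the gene. Of the 69, 7 rose, 6 fell and 56 were not called, against 20.4% called among all 17544 genes (10.6% higher and 9.81% lower). With median centring 9 were called higher and 16 lower, against a background of 10.8% higher and 17.3% lower, so that the balance of the calls rests on the scaling. The 1-way ANOVA called none of the 48 it could test. Their median log2 difference was 0, as over all genes. Untested, 14 were higher and 12 lower by 2-fold or more in each SupB15-MR array, where the background was 29.6% in either direction (14.5% higher and 15.1% lower). In the cap-binding list 3 of 12 genes were called higher and none lower, and with median centring 4 higher and 2 lower. Those 2, named after their values were seen, were EIF4G2 and MKNK1. EIF4G2, a relative of EIF4G1, had 11.47 and 11.17 in SupB15-MR and 13.19 in SupB15 (centred log2 difference -2.07, adjusted p = 0.0283 from limma). Without centring its other probe sets had -0.54 and 2.96, so that EIF4G2 went 2-fold both ways. MKNK1, a kinase of EIF4E, had 6.78 and 6.57 in SupB15-MR and 7.95 in SupB15 (centred log2 difference -1.46, adjusted p = 0.0265 from limma). Its other probe sets had -1.16 and 0 without centring. EIF4G1, the scaffold of the cap-binding complex, had 10.24 and 10.32 in SupB15-MR and 7.77 in SupB15 (log2 difference 2.51, adjusted p = 0.0144 from limma), with -0.45 on its other probe set. EIF4EBP2, the close relative of EIF4EBP1, had 10.77 and 10.64 in SupB15-MR and 8.81 in SupB15 (log2 difference 1.90, adjusted p = 0.0333 from limma), the opposite sign to EIF4EBP1, and 3 of its 5 probe sets were higher by 2-fold or more while no other was lower by as much. EIF4B, which stimulates the cap-bound helicase, had 12.03 in both SupB15-MR arrays and 10.62 in SupB15. Its log2 difference was 1.41 there and 0.12 and 4.09 on its other probe sets.

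Among the other subunits of the complexes 2 of 8 genes were called lower and none higher, and with median centring 4 lower and 1 higher. Over all 17544 genes, the background for each list here, 10.6% were called higher and 9.81% lower, and 10.8% and 17.3% with median centring. By 2-fold or more in each SupB15-MR array, without a test, 14.5% were higher and 15.1% lower. By the same measure 3 of the 8 were higher and 3 lower, too few genes to be a result about the list. Of those not called, and named after their values were seen, MLST8, a subunit of both complexes, had 5.94 and 6.14 in SupB15-MR and 7.83 in SupB15 (log2 difference -1.80, adjusted p = 0.051 from limma, and -1.99 and 0.0165 with median centring). MAPKAP1, a subunit of complex 2, had 9.21 and 9.53 in SupB15-MR and 7.58 in SupB15 (log2 difference 1.79, adjusted p = 0.0831 from limma, and 1.59 and 0.0408 with median centring). PRR5L and TTI2 had log2 differences of 1.58 and 1.61 and were called under neither scaling. PRR5, a subunit of complex 2, had 5.04 and 5.16 in SupB15-MR and 7.28 in SupB15 (log2 difference -2.19, adjusted p = 0.0253 from limma), and its second probe set had a log2 difference of -1.66. TTI1, which helps to fold and assemble mTOR, had 7.20 in both SupB15-MR arrays and 8.27 in SupB15. Of the 10 genes of the S6 kinase branch 2 were called lower (3 lower and 1 higher with median centring). The 2 were EEF2, the elongation factor that S6 kinase signalling controls, with a log2 difference of -1.35 (and -2.82 on its other probe set), and PPP2R1A, a scaffold of protein phosphatase 2A, with -1.01. On the probe sets that stand for the genes, NCBP1, the nuclear cap-binding subunit, had the largest difference of this list. It had 10.16 and 10.57 in SupB15-MR and 7.96 in SupB15 (log2 difference 2.40), and 0.08 on its other probe set. It was not called here, but was with median centring (2.21, adjusted p = 0.0356 from limma). The limma fit on probe sets whose SupB15-MR values differ called it too. NCBP1 was named after its values were seen. Of 12 genes of the TSC and energy input 2 rose (with 2 others called lower with median centring), PRKAA1, a catalytic subunit of AMPK, by 1.86 and STK11, the kinase that activates it, by 1.73. Each of those had another probe set lower by 2-fold or more. Of 27 genes of the amino acid input 2 rose, ITFG2 (1.16) and MIOS (1.02), which stand at 0.97 and 0.83 and under 2-fold with median centring, and 2 fell, NPRL2 (-1.38) and FNIP1 (-1.24, with 1 of its 4 probe sets higher by 3.88). Median centring gave 1 higher and 5 lower there. NPRL2 had the same value, 7.03, in both SupB15-MR arrays, and a log2 difference of -0.41 on its other probe set. NPRL2 belongs to the complex that restrains the Rag GTPases and MIOS to the one that opposes it.

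**Figure D3:**
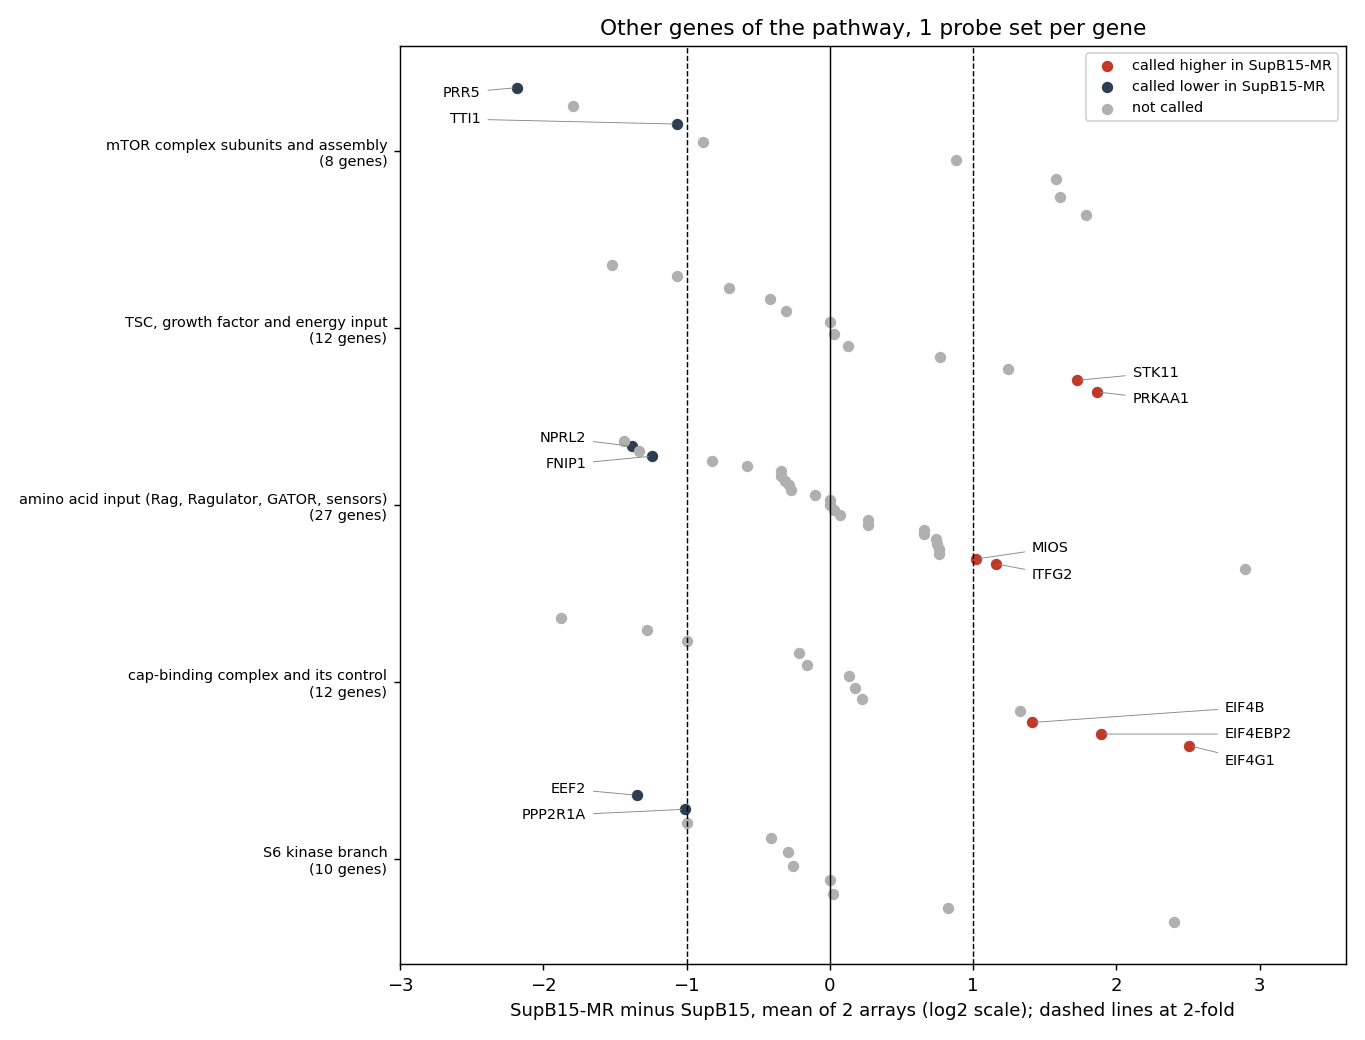
SupB15-MR minus SupB15 (mean of 2 arrays, horizontal axis, log2 scale, dashed lines at 2-fold) for 69 other genes of the pathway, 1 point per gene on 1 probe set each, by list. The 7 genes called higher and the 6 called lower are coloured and named, and the cap-binding list has 3 called higher and none lower. In that list 2 others, at least 2-fold lower, were not called in this fit but were with median centring.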

How the data were processed

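Total RNA of 2 SupB15-MR samples and 1 SupB15 sample was labelled with a NuGEN Ovation kit by the authors for hybridization to Affymetrix arrays. The sources name the array inconsistently, and the 54675 probe sets are those of HG133plus2. The deposited values are log2 expression values that the authors made with RMA, and whether other arrays were normalised together with these is not given in the sources used here. The precision is limited by the number of arrays.

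The low-value limit was the 20th percentile over the whole table, 3.47. A probe set that exceeded it in none of the 3 arrays was left out (8641), which left 46034. Names came from the platform annotation, with symbols updated to RefSeq: 41097 probe sets have 1 gene, 1801 several and 11777 none. SupB15-MR was compared with SupB15 with limma 3.58.1 in R 4.3.3 (1 residual degree of freedom, two-sided, empirical Bayes), and the residual spread of identical values was set to 0, so that the prior SD was 0.00102 (prior degrees of freedom 0.313). The code was tested on simulated data. The methods name an ANOVA, which was an alternative, as were scaling, filter, fold, variance model and choice of probe set. Named were all 10 genes with each probe set and, of each other list, up to 3 called genes in each direction that reached 2-fold in each SupB15-MR array. The members and lists were chosen with earlier results of these data known.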

Additional observations from a re-analysis of the deposited data

How the results depend on the processing

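The 1-way ANOVA gave 0 calls higher and 0 lower, both over all probe sets and among the probe sets of the 10 genes. Before adjustment, at p up to 0.05 and 2-fold or more, it gave 4238 higher and 2540 lower over all and 4 higher and 3 lower among the 10 genes. It ran on 27745 probe sets, since identical values leave no residual spread. Fitted with limma on the same 27745 probe sets, where the prior SD was 0.169 and 49.2% were called, 9 of the 19 of the 10 genes that could be tested were called, 5 higher and 4 lower. RHEB 243008_at and EIF4E 242674_at were among them (adjusted p = 3.78e-07 and 1.55e-07 from limma), while RHEB 1555780_a_at and DEPTOR 218858_at could not be tested there. Median centring gave 7762 calls lower over all probe sets, against 4470, and 6552 higher, against 6021, and among the 10 genes 5 higher and 7 lower. With it, or with quantile normalization again, RHEB 243008_at, EIF4E 242674_at and RPS6KB1 226660_at passed the threshold, and TSC1 209390_at and RPS6KB1 204171_at changed sign without a call. At 1.5-fold in both SupB15-MR arrays 9 probe sets of the 10 genes were higher, against 5, and 7 were lower, against 6. The shares of all probe sets at this threshold were not taken, so that these counts are no result about the 10 genes. Without 1 SupB15-MR replicate, a value with no test, 5 to 7 probe sets of the 10 genes were at least 2-fold higher and 6 lower in each case. For the other pathway genes, scaling and ANOVA were added after seeing the data. Median centring called 9 higher and 16 lower, quantile normalization 8 and 14, and the ANOVA 0 and 0 of 48, against 7 and 6 of 69. The median over all probe sets of a gene, without a test, gave 8 higher and 12 lower by 2-fold or more, against 14 and 12 on 1 probe set in each SupB15-MR array, also without a test. No called probe set of the 10 genes changed direction or lost its call under either scaling, and the fits with no filter and with a mean-variance trend again called 4 higher and 5 lower. No paired analysis was possible with 1 SupB15 array, whose label also carries no replicate number. The SupB15 array could not be left out, since it is the only one of its group.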
